A study of Mus musculus with 12 samples.

Results

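The study separated 2 sets of precipitates: RNA that came down with an antibody against CNOT6L from wild-type mouse hepatocytes, and RNA that came down with the same antibody from Cnot6l knockout hepatocytes, which served as the negative control. The comparison used 6 of the 12 arrays of the series, 3 wild-type precipitates and 3 knockout precipitates, chosen by their titles and paired by their replicate number. The remaining arrays, which measured input RNA, were not used. All cells were primary hepatocytes of male C57BL/6J mice aged 8 weeks, wild-type or Cnot6l knockout. No source used here states the kind of knockout allele or the exons it removes. Each precipitate was hybridised as biotin-labelled cRNA to its own Affymetrix mouse array, and the authors' values are log2 signals, so a difference of 1 is a 2-fold difference. The titles call the replicates biological, but no label ties the wild-type and knockout arrays of a number to shared mice, litters or days.

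CNOT6L is a catalytic subunit of the CCR4-NOT complex, the main deadenylase of the cytoplasm. The complex shortens the poly(A) tail of an mRNA, which silences the message and exposes it to decapping and decay. It reaches its targets through adaptor proteins, among them the AU-rich element binding protein tristetraprolin, the BTG and TOB proteins and the microRNA machinery. Messages of immediate early genes, cytokines and feedback inhibitors are textbook examples of short-lived mRNAs removed by this route. An RNA immunoprecipitation compares messages that travel with the protein, and the knockout precipitate gives the background of RNA that comes down without it.

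In this comparison 7 genes were higher in the wild-type precipitate and none was lower. They were Tec, Nfkbia, Fgf21, G0s2, Id2, Papolg and Adm, with differences of 2.40 to 3.36 on the log2 scale, or 5.26-fold to 10.3-fold. The test was limma with the replicate number as a block over 9496 named genes, two-sided, with 3 arrays in each group and a Benjamini-Hochberg adjusted p of 0.0491 for each of the 7. These calls made up 0.0737% of the genes tested, against 0% called lower. At an unadjusted p under 0.05, 798 genes were on the wild-type side (8.4%) and 203 on the knockout side (2.14%) in limma. After quantile normalization the same count was 620 higher against 350 lower, and without a filter on dim genes it was 831 against 574, so the lean to the wild-type side narrowed with both. All 7 calls lie just inside the threshold, and none was called without the replicate block, where the smallest adjusted p was 0.085 (Tec). The amount of a message in the cells and the share of it that was precipitated cannot be told apart here, because no input array enters the comparison.

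The 6 arrays had like median signals, 6.33 to 6.43 over all probe sets. Same-number arrays were closer to each other (r of 0.921 to 0.944 across the genes tested) than arrays of 1 group (0.813 to 0.859). This is a comparison across genes and not across samples. The added poly-A control RNAs stood apart by number: their 3' probe sets exceeded their 5' probe sets by 4.51 and 4.94 in both arrays of number 1 and by 0.70 to 1.01 in the other 4. The 3' probe sets of Gapdh exceeded its 5' ones by 2.34 and 1.93 in number 3 and by 0.84 to 1.14 in the others. The bioB hybridisation control was at 11.26 in wild-type precipitate 2 and at 12.77 to 13.77 elsewhere. Hepatocyte markers were the brightest marker list: albumin (Alb) was at 14.23 or above on all 6 arrays, and the summed level of the 8 markers on the array spanned 16.07 to 16.46 in wild-type and 16.01 to 16.28 in knockout precipitates. Markers of other liver cells were far dimmer, with summed levels of 10.69 to 11.22 against 11.04 to 11.25 for Kupffer cells, 8.67 to 9.53 against 8.62 to 9.47 for sinusoidal endothelium and 9.0 to 10.21 against 9.13 to 10.85 for stellate cells. Those ranges overlap between the groups, and the part of other cell types in the results below was not tested further.

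Cnot6l itself did not separate the precipitates. Its log2 signal was 9.11, 10.65 and 8.85 in wild-type arrays 1 to 3 and 9.29, 10.63 and 9.46 in knockout arrays 1 to 3. The difference was -0.26 ± 0.22 (SE, 3 pairs; limma adjusted p = 0.742), and the groups overlap. Since the deleted exons and the place of the probes on the message are not known here, this level does not check the genotype labels.

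Tec, a non-receptor tyrosine kinase that gives the Tec kinase family its name, had the largest difference. Its log2 signal was 11.49, 12.17 and 11.66 in wild-type precipitates and 8.59, 8.39 and 8.25 in knockout precipitates. Every wild-type array was brighter than every knockout array by at least 2.90, and the knockout arrays hardly varied (SD 0.17, n = 3). The difference was 3.36 ± 0.25 (SE; 95% interval 2.75 to 3.98), or 10.3-fold, with a limma adjusted p of 0.0491.

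Nfkbia encodes IkappaB-alpha, the inhibitor that holds NF-kappaB in the cytoplasm and is itself induced by NF-kappaB. It was among the brightest messages of the wild-type precipitates, at 14.29, 13.80 and 14.06, against 11.69, 10.22 and 10.98 in the knockout. The signals did not overlap, and the smallest gap within a pair was 2.61 in number 1. The difference was 3.09 ± 0.26 (SE), or 8.52-fold (limma adjusted p = 0.0491).

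Fgf21, a hormone that the liver secretes in fasting and under metabolic stress, measured 10.01, 10.43 and 9.75 in the 3 wild-type precipitates and 6.48, 7.61 and 6.88 in those of the knockout. All wild-type arrays lay above all knockout arrays, with the widest gap, 3.53, in number 1. The difference was 3.07 ± 0.24 (SE), or 8.41-fold (limma adjusted p = 0.0491). Adm encodes adrenomedullin, a secreted peptide that widens blood vessels. Its signal was 10.24, 12.13 and 11.48 with the protein present and 7.89, 9.68 and 9.10 in the knockout. The level moved with the replicate number while the gap held between 2.35 and 2.45 in the 3 pairs. Its difference was 2.40 ± 0.20 (SE), or 5.26-fold (limma adjusted p = 0.0491).

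G0s2 encodes an inhibitor of adipose triglyceride lipase and so acts on lipid droplets. It stood at 11.03, 12.16 and 11.26 on the wild-type arrays and 8.31, 9.11 and 8.80 on the knockout arrays, with no overlap and a difference of 2.74 ± 0.22 (SE), or 6.70-fold (limma adjusted p = 0.0491). Id2 encodes a helix-loop-helix protein that binds other transcription factors and keeps them off DNA. Its arrays of number 2 were the highest in both groups: wild-type 10.06, 11.96 and 10.09 and knockout 7.45, 9.17 and 7.42. Within the pairs the gap was 2.60, 2.79 and 2.68, and the difference was 2.69 ± 0.20 (SE), or 6.46-fold (limma adjusted p = 0.0491). Papolg encodes a nuclear poly(A) polymerase, the enzyme class that lengthens the tail that CCR4-NOT removes. It measured 8.04, 9.52 and 9.72 on the wild-type arrays and 5.19, 6.77 and 7.39 on the knockout arrays, a difference of 2.64 ± 0.22 (SE), or 6.22-fold (limma adjusted p = 0.0491).

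**Figure D1:**
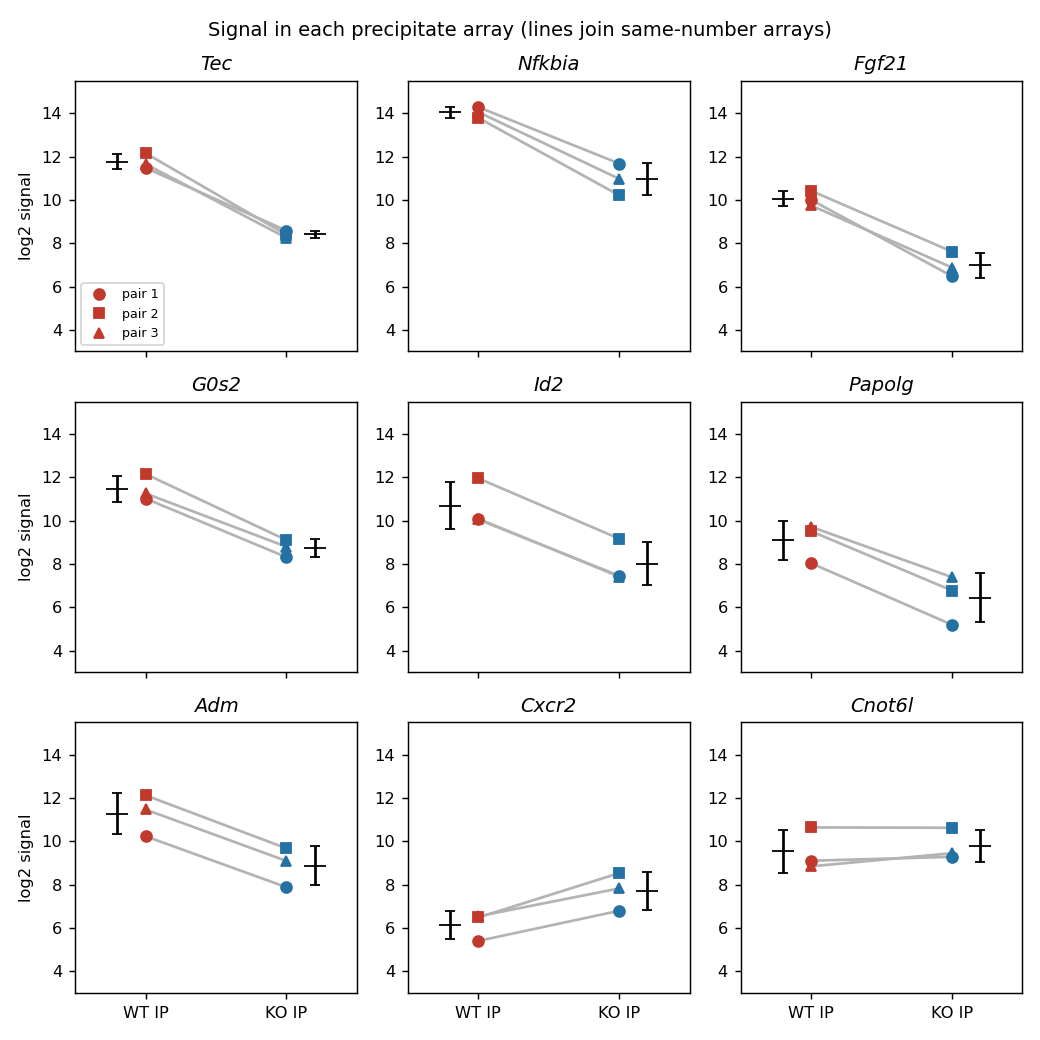
Log2 signal (vertical axis) of the 7 called genes, Cxcr2 and Cnot6l in the 3 wild-type (WT IP, red) and 3 knockout (KO IP, blue) precipitates; grey lines join arrays of the same number, and the black bars beside them are the group mean ± SD (n = 3). The called genes lie 2.33 to 3.77 higher in wild-type in every pair, Cxcr2 lies higher in the knockout in every pair, and the Cnot6l pairs differ by -0.61 to 0.02.

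Leaving out both arrays of a number changed the calls. Without number 1, 8 genes were called higher, and Tec, Nfkbia and Fgf21 were the 3 of the original 7 among them, with limma adjusted p-values of 0.0421, 0.0421 and 0.0477. Without number 2 or number 3 no gene was called (smallest limma adjusted p = 0.307 and 0.117), while 532 and 694 genes were higher at an unadjusted p under 0.05. The differences of the 7 genes in these fits were 2.37 (Adm) to 3.59 (Tec). Others moved more: Cyp26a1, a retinoic acid hydroxylase named after its values were seen, had pairs of -0.37, 4.62 and 3.92 and a difference of 2.72 ± 0.96 (SE; limma adjusted p = 0.414). Without number 1 its difference was 4.27 and it was called (limma adjusted p = 0.0421). Its mean over the 3 knockout arrays, 5.55, lies below the signal filter of 5.7, so it was tested only through its wild-type arrays.

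A set of 5 further genes lay just outside the threshold, each with a limma adjusted p of 0.0508, and they are named here after their values were seen. Ly96 encodes MD-2, the co-receptor that lets TLR4 bind endotoxin. It measured 10.68, 11.72 and 11.98 against 8.52, 9.53 and 9.87, and its pairs differed by 2.16, 2.19 and 2.11. Bcl3, an IkappaB-like protein that works in the nucleus, measured 12.59, 11.77 and 11.53 against 10.52, 9.55 and 9.03. Btg2, an antiproliferative protein that binds the CAF1 deadenylases of the CCR4-NOT complex, measured 11.19, 12.42 and 11.51 against 8.94, 9.93 and 9.47. The other two were Tmem39a, a membrane protein of the endoplasmic reticulum, with a difference of 2.18 ± 0.20 (SE), and Pdcd7, a protein of the minor spliceosome, with 2.39 ± 0.22 (SE). None of these 5 overlapped between the groups, and 516 of all genes tested (5.43%) were higher in wild-type without overlap. The 5 were picked by their p on these same arrays, so their separation adds no support.

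The pairs were also read without a model. A descriptive rule, chosen after the data were seen, asked that the groups not overlap and that wild-type exceed knockout at least 2-fold in each of the 3 pairs. It was met by 84 genes (0.885% of those tested), and the reverse rule by 1 gene (0.0105%). All 7 called genes are among the 84. The 84 spread over the range of signal: with the tested genes cut by mean signal into 5 equal groups, 5 lay in the dimmest group, 12 in the next, 12 in the middle one, 26 in the one above it and 29 in the brightest. Of the 84 genes, 38 belong to at least 1 of the 45 functional lists examined and 46 to none, and 4 carry only clone or model names. In 5 of the 84 the knockout mean lay below the signal filter of 5.7, so that they were tested only through their wild-type arrays.

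**Figure D2:**
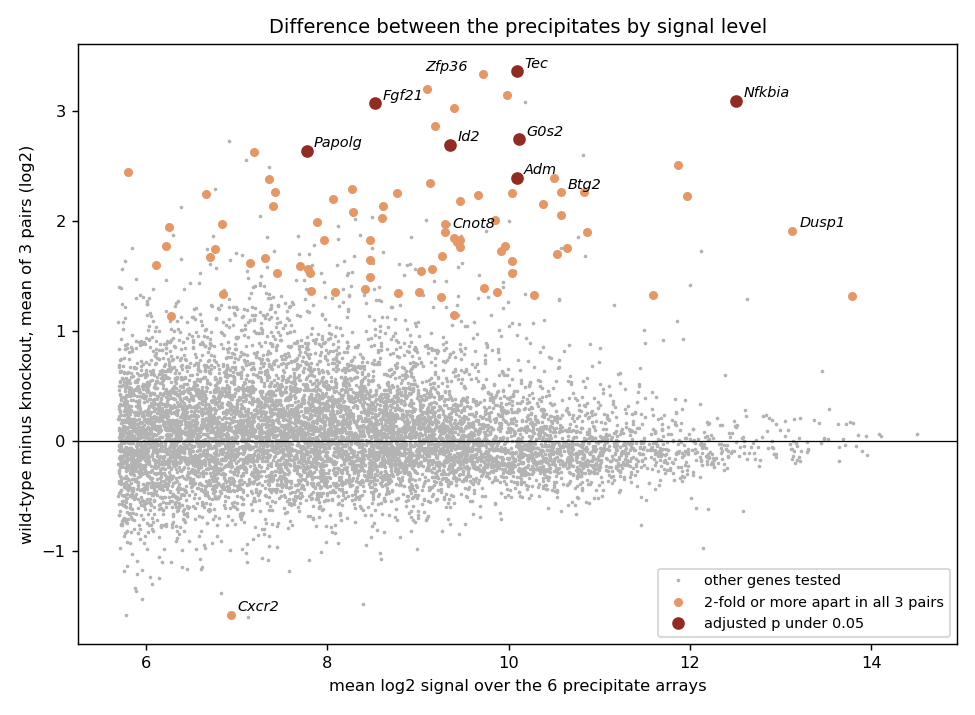
Mean log2 signal over the 6 precipitates (horizontal axis) against the wild-type minus knockout difference (vertical axis, log2, mean of 3 pairs) for the 9496 genes tested; dark red marks the 7 genes with an adjusted p under 0.05 and orange the other genes at least 2-fold apart in all 3 pairs. The orange points lie in the upper part of the plot from signals near 6 to near 14, and Cxcr2 is the 1 orange point below 0.

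The size of the differences was lopsided. A mean difference of at least 1 was found for 372 genes and one of at most -1 for 34. A difference of at least 2 was found for 48 genes, and none reached -2, the extremes being 3.36 and -1.59. The median over all genes was 0.03, and 5101 of the 9496 differences (53.7%) were positive. Genes with a positive difference in all 3 pairs numbered 1892 (19.9%), and those with a negative difference in all 3 pairs numbered 1356 (14.3%).

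The 3 pairs share no array, so each gives its own ranking of the genes. Of the 100 genes with the largest difference in a pair (1.05% of those tested), pairs 1 and 2 had 20 in common, pairs 1 and 3 had 14, and pairs 2 and 3 had 33. On the knockout side the corresponding overlaps were 4, 4 and 3 genes. The 3 top lists had 10 genes in common and the 3 bottom lists 0. Across all genes, which are not independent replicates, the differences correlated with r = 0.20 (pairs 1 and 2), 0.13 (pairs 1 and 3) and 0.34 (pairs 2 and 3).

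**Figure D3:**
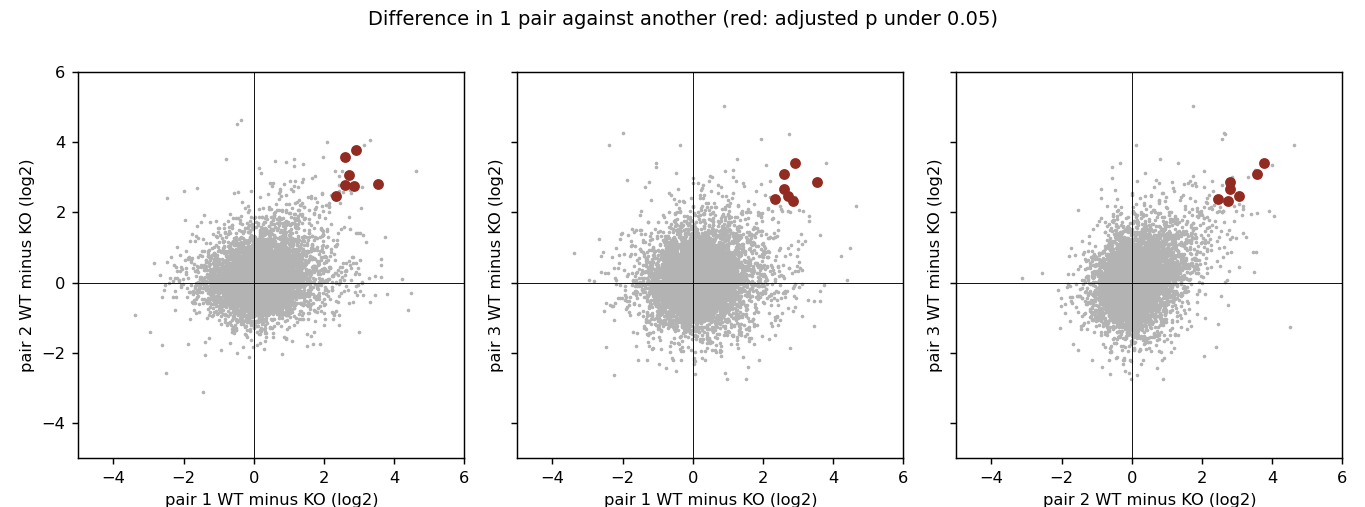
Wild-type minus knockout difference (log2) of each tested gene in 1 pair against another pair, with the 7 called genes in dark red. The bulk is a round cloud around 0, with correlations of 0.20, 0.13 and 0.34, and the upper right quadrant holds a tail of genes that includes the called ones.

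Immediate early genes answer a stimulus without new protein synthesis, and their messages are short-lived. They formed the list with the highest median of the 45. The lists and their members were chosen with earlier results of these data known, so this rank and the shares below are description only. Of 43 members tested, 40 had a positive difference and 37 were higher in all 3 pairs (against 19.9% of all genes), and the list median was 1.03 (against 0.03). Only Id2 passed the adjusted test, 31 members had an unadjusted p under 0.05 on the wild-type side and none on the knockout side, and 8 met the 2-fold rule. Over all genes 0.0737% passed the adjusted test on the wild-type side. At that unadjusted limma p 8.4% were on the wild-type side and 2.14% on the knockout side, and 0.885% met the rule. The list median was 0.89 to 1.19 under the other scalings, filters and left-out numbers. Members that did not pass are named after their values were seen. Fos, a subunit of AP-1, measured 9.55, 12.14 and 11.33 against 7.34, 9.65 and 10.02 (difference 2.00 ± 0.29 SE, limma adjusted p = 0.121). Ier3, a stress-induced survival factor, measured 13.58, 13.16 and 12.61 against 11.60, 9.60 and 10.63 (2.51 ± 0.37 SE, limma adjusted p = 0.121). Myc, the growth-promoting transcription factor, differed by 1.75 ± 0.29 (SE), Junb by 1.61 ± 0.24 (SE) and Jun by 1.22 ± 0.25 (SE). The list was not uniform: Egr1 differed by 0.72 ± 0.32 (SE), Atf3 by -0.09 ± 0.29 (SE) and Nr4a3 by -0.27 ± 0.28 (SE).

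Id1 and Id3, relatives of Id2, were higher in all 3 pairs without separating the groups. Id1 measured 6.48, 9.61 and 9.73 in wild-type against 5.32, 6.29 and 6.73 in knockout precipitates, and Id3 measured 7.45, 10.85 and 10.23 against 6.42, 7.95 and 8.05. Their wild-type array 1 falls within the knockout range (differences 2.49 ± 0.45 and 2.04 ± 0.38 SE; limma adjusted p = 0.156 and 0.165). Both were named after their values were seen.

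Feedback inhibitors of kinase and cytokine signalling end the signals that induce them. Of 30 tested phosphatases and inhibitors of this list, 27 had a positive difference, 18 were higher in all 3 pairs, 3 met the 2-fold rule and none passed the adjusted test (limma gave 10 higher and 1 lower at unadjusted p-values under 0.05). The list median was 0.43. Over all genes 19.9% were higher in all 3 pairs and 0.885% met the 2-fold rule. In limma 8.4% of all genes were higher and 2.14% lower at that unadjusted p. Dusp6, the phosphatase that shuts off ERK, measured 10.74, 12.78 and 12.86 in wild-type against 8.21, 9.61 and 10.76 in knockout precipitates (difference 2.60 ± 0.27 SE, limma adjusted p = 0.0742). The highest knockout array lay just above the lowest wild-type array, so the groups overlap although every pair differed by at least 2.10. Socs3, which blocks JAK-STAT signals from the IL-6 receptor, measured 9.41, 8.73 and 9.35 against 6.70, 6.87 and 7.32 without overlap (2.20 ± 0.25 SE, limma adjusted p = 0.0875). Dusp1, a nuclear phosphatase of p38 and JNK named after its values were seen, measured 13.89, 14.61 and 13.76 against a narrow 12.14, 12.20 and 12.18.

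The NF-kappaB pathway list held a few large differences and many small ones. Of 39 members tested, 27 were positive, 12 were higher in all 3 pairs (against 19.9% of all genes) and the median was 0.15. Nfkbia was called (against 0.0737% of all genes), and Ly96 and Bcl3 also met the 2-fold rule (against 0.885% of all genes). At an unadjusted p under 0.05 there were 6 members on the wild-type side and 2 on the knockout side in limma (against 8.4% and 2.14% of all genes). The latter were Tnip2, an A20-binding inhibitor, at -0.86 ± 0.25 (SE), and the kinase Ikbkb, at -0.61 ± 0.21 (SE), with limma adjusted p-values of 0.326 and 0.403. The wild-type mean of Tnip2, 5.556, lies below the signal filter, so it was tested only through its knockout arrays. Nfkbiz, another nuclear IkappaB protein, differed by 1.31 ± 0.21 (SE) and Tnfaip3, the deubiquitinase A20, by 1.07 ± 0.25 (SE), neither passing (limma adjusted p = 0.126 and 0.234). The kinase Map3k8 differed by 1.75 ± 0.55 (SE), with 0.20 in pair 1 and 3.14 in pair 2. The knockout mean of Map3k8, 4.965, lies below the signal filter, so it was tested only through its wild-type arrays. The genes of this list beyond Nfkbia were named after their values were seen. The subunit Rela differed by -0.32 ± 0.23 (SE) and the inhibitor Nfkbie by -0.05 ± 0.23 (SE), and Tlr4, the partner of Ly96, by 0.38 ± 0.30 (SE).

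Cytokine and chemokine messages are classic carriers of AU-rich elements. Of 23 tested, 14 were positive, 11 were higher in all 3 pairs, 1 met the 2-fold rule and none passed (limma gave 8 higher and 0 lower at unadjusted p-values under 0.05). The shares over all genes were 19.9% for all 3 pairs and 0.885% for the rule. At that unadjusted p in limma, 8.4% of all genes were higher and 2.14% lower. Vegfa, the vascular growth factor, measured 7.90, 9.80 and 9.19 against 6.71, 8.02 and 7.92 (difference 1.41 ± 0.23 SE, limma adjusted p = 0.126). Cxcl2, a neutrophil attractant, measured 10.42, 11.43 and 11.63 against 9.02, 8.03 and 9.66, with pair differences from 1.40 to 3.39 (2.25 ± 0.41 SE, limma adjusted p = 0.156). The list median was 0.47 and turned to -0.09 when dim genes were kept, which adds members with signals near the array floor.

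Among hepatokines and other secreted regulators 39 genes were tested, of which Fgf21 and Adm were called (against 0.0737% of all genes). Of the 39, 29 were positive and 16 were higher in all 3 pairs, against 19.9% of all genes (list median 0.24). Hamp, the iron hormone hepcidin, differed by 1.31, 2.21 and 1.59 in the pairs, with overlapping groups. Inhbe, a liver activin subunit, measured 6.70, 7.78 and 7.88 against 6.16, 4.94 and 4.88, so number 1 differed by far less than the others (2.13 ± 0.52 SE, limma adjusted p = 0.251). The knockout mean of Inhbe, 5.325, lies below the signal filter, so it was tested only through its wild-type arrays. Hamp and Inhbe were named after their values were seen. Igf1 differed by -0.06 ± 0.21 (SE). The matricellular list had 21 members tested, of which 17 were positive and 8 were higher in all 3 pairs (against 19.9% of all genes). It had 3 meeting the 2-fold rule (against 0.885%), none called and 5 higher at an unadjusted p under 0.05 (against 8.4%, limma). Its median was 0.25, but 0.53 and 0.65 in pairs 1 and 2 against -0.30 in pair 3. The summed level of stellate cell markers was 10.21 in wild-type and 10.85 in knockout array 3, against 9.0 to 9.81 on the other 4. Col3a1 (8.65 and 9.93 in wild-type and knockout array 3) and Dcn (8.60 and 8.83) were the bright ones there. The other tested markers, Reln (6.01 and 4.30), Acta2 (5.32 and 6.66) and Des (6.70 and 5.87), were not raised in both arrays. The part of stellate cells in the list was not tested. Adamts1, a secreted protease of the matrix, measured 10.18, 11.35 and 11.20 against 7.04, 7.44 and 9.17 (3.03 ± 0.38 SE, limma adjusted p = 0.103). Ccn1, a matrix-bound signalling protein, measured 12.48, 13.13 and 13.63 against 10.06, 10.35 and 12.14 (2.23 ± 0.30 SE, limma adjusted p = 0.117). In both, knockout array 3 was the highest of its group.

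Growth arrest and p53 target genes gave 27 positive differences among 32 tested and 15 that were higher in all 3 pairs (median 0.33), with none called and 8 higher at an unadjusted p under 0.05 in limma. Over all genes 19.9% were higher in all 3 pairs and 8.4% were higher at that limma p. Besides Btg2, Ccng2 had the smallest p. This unconventional cyclin, linked to arrest of the cycle, measured 10.66, 10.82 and 10.64 against 7.92, 8.17 and 6.42. Its wild-type arrays were nearly equal and knockout array 3 was low, so that pair 3 differed by 4.22 (3.20 ± 0.36 SE, 9.22-fold, limma adjusted p = 0.0875). Ddit4, an inhibitor of mTORC1 named after its values were seen, differed by 3.15 ± 0.39 (SE), with pairs from 2.08 to 4.01.

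Messages of the deadenylation system itself included some of the larger differences. Of 14 CCR4-NOT subunits and cofactors tested, 10 were positive and 6 were higher in all 3 pairs, with a median of 0.21 and none called (4 at an unadjusted p under 0.05, limma). Over all genes 19.9% were higher in all 3 pairs and 8.4% were higher at that limma p. The 2 of the 14 that met the 2-fold rule, which 0.885% of all genes met, were Btg2 and Cnot8. Cnot8, one of the paralogous CAF1 deadenylases, measured 9.86, 10.69 and 10.20 against 8.01, 8.77 and 8.27. Its pairs differed by 1.85, 1.91 and 1.93, a difference of 1.90 ± 0.20 (SE; limma adjusted p = 0.0742). Its paralog Cnot7 measured 6.34, 7.53 and 5.65 against 5.98, 7.27 and 4.91, a difference of 0.45 ± 0.21 (SE) with overlapping groups. Of 42 other mRNA decay factors, 25 were positive and the median was 0.09. In all 3 pairs 15 were higher and 10 lower (against 19.9% and 14.3% of all genes). None passed, with 7 on the wild-type side and 1 on the knockout side at an unadjusted p under 0.05 in limma (against 8.4% and 2.14%). Pnrc1 and Dcp1a, a cofactor and a subunit of decapping, had the smallest p (differences 1.05 ± 0.21 and 1.24 ± 0.27 SE; limma adjusted p = 0.183 and 0.209). The knockout mean of Dcp1a, 5.39, lies below the signal filter of 5.7, so it was tested only through its wild-type arrays.

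Of 8 poly(A) and terminal uridylyl transferases tested, a family put together after the values were seen, 6 were positive and 5 were higher in all 3 pairs, with a median of 0.58. Over all genes 19.9% were higher in all 3 pairs. Papolg was called. Tent5a, a cytoplasmic poly(A) polymerase, measured 9.04, 11.33 and 11.50 against 7.11, 8.77 and 7.39 (2.87 ± 0.43 SE, limma adjusted p = 0.121). The canonical enzyme Papola measured 8.81, 9.47 and 7.96 against 8.35, 9.52 and 8.45, a difference of -0.02 ± 0.25 (SE), and the mitochondrial Mtpap differed by -0.01 ± 0.23 (SE). Between them lay Tut1 at 1.10 ± 0.34, Tut4 at 0.59 ± 0.24, Tent4a at 0.58 ± 0.23 and Tut7 at 0.02 ± 0.23 (SE), none passing. Of 4 poly(A)-binding proteins and partners tested, 1 was higher in all 3 pairs and the median was 0.04. It was Paip2, which takes the poly(A)-binding protein off the tail and measured 11.69, 12.54 and 12.55 against 10.67, 11.29 and 10.83 (1.33 ± 0.23 SE, limma adjusted p = 0.151). Paip1 differed by 0.05 ± 0.21, Paip2b by -0.38 ± 0.36 and Pabpn1 by 0.04 ± 0.20 (SE).

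The list of mRNA-binding regulators mixes proteins that recruit the deadenylase with others that stabilise or move mRNA. Of 33 tested, 21 were positive, 12 were higher in all 3 pairs, 2 met the 2-fold rule and none was called (limma gave 5 on the wild-type side and 0 on the other at unadjusted p-values under 0.05). The shares over all genes were 19.9% for all 3 pairs and 0.885% for the rule. At that unadjusted p in limma, 8.4% of all genes were higher and 2.14% lower. The median, 0.08, was near that of all genes. Zfp36 encodes tristetraprolin. It measured 11.24, 12.15 and 10.76 against 6.60, 8.97 and 8.57, a 10.1-fold difference whose pairs ran from 2.18 to 4.64 (3.33 ± 0.47 SE, limma adjusted p = 0.12). Mex3d, an RNA-binding ubiquitin ligase, was dim, at 7.78, 6.41 and 6.89 against 5.0, 3.85 and 4.88. It did not pass the test, and since its knockout mean of 4.58 lies below the signal filter it was tested only through its wild-type arrays. The relatives of tristetraprolin differed from it: Zfp36l1 gave 1.59 ± 0.26 (SE) and Zfp36l2 0.08 ± 0.20 (SE). Elavl1, which encodes the stabilising protein HuR, differed by 0.06 ± 0.21 (SE).

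General transcription factors were a list without an immediate early character. Of 38 tested, 25 were positive and 16 were higher in all 3 pairs (median 0.19), none was called and 10 were higher at an unadjusted p under 0.05 in limma, against 0 lower. Over all genes 19.9% were higher in all 3 pairs, and 8.4% were higher and 2.14% lower at that limma p. Tbp, the TATA-binding subunit of TFIID, measured 9.05, 10.04 and 9.08 against 7.48, 7.98 and 7.23 (1.83 ± 0.21 SE, limma adjusted p = 0.0934). Cdk7, the kinase of TFIIH, measured 11.89, 11.17 and 11.74 against 9.41, 9.66 and 9.57 (2.06 ± 0.26 SE, limma adjusted p = 0.103). Both separated the groups in all pairs. Of 28 Mediator subunits, a coactivator complex looked at after the values were seen, 20 were positive and 9 were higher in all 3 pairs, with a median of 0.12. Med4 and Med31 met the 2-fold rule (1.55 ± 0.20 and 1.40 ± 0.20 SE), which 0.885% of all genes met.

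Clock genes and Krüppel-like factors leaned the same way without a gene that met the 2-fold rule, and some of them, among them Per1, Bhlhe40, Klf4 and Klf15, also stand in the immediate early list. Of 19 clock genes, 16 were positive and 11 were higher in all 3 pairs (median 0.53), and of 16 Krüppel-like factors 13 were positive and 11 were higher in all 3 pairs (median 0.57). None passed limma's adjusted test, with 8 and 6 members higher at an unadjusted p under 0.05. Over all genes 19.9% were higher in all 3 pairs and 8.4% were higher at that limma p. Per1, a repressor in the clock, measured 8.89, 10.02 and 9.88 against 7.46, 7.87 and 8.93 (1.51 ± 0.29 SE, limma adjusted p = 0.166). Bhlhe40, another repressor of the clock, gave nearly equal wild-type values, 11.96, 11.96 and 11.93, against 11.16, 11.18 and 10.83 (0.89 ± 0.20 SE, limma adjusted p = 0.232). Klf15, a regulator of liver amino acid metabolism, differed by 1.41 ± 0.25 (SE) and Klf4 by 1.22 ± 0.24 (SE), with limma adjusted p-values of 0.153 and 0.179. Of 197 Zfp transcripts, the large group of zinc finger genes that holds Zfp36, 132 were positive and 64 were higher in all 3 pairs (median 0.19). None of them passed, and Zfp36 and Zfp809, a silencer of retroviral DNA, met the 2-fold rule, as did 0.885% of all genes.

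**Figure D4:**
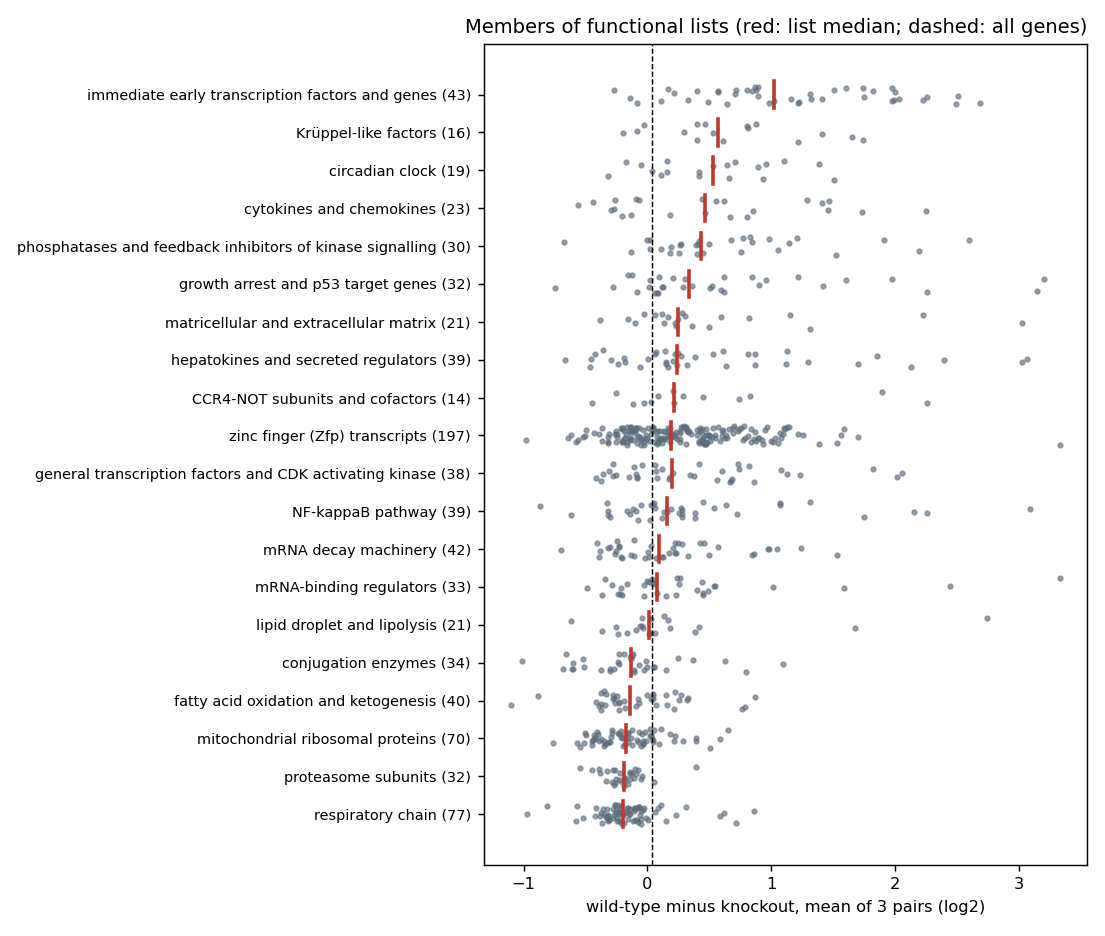
Wild-type minus knockout difference (log2, mean of 3 pairs) of every tested member of 20 functional lists, with the number tested in brackets; the red bar is the list median and the dashed line the median of all genes, 0.03. Immediate early genes have the highest median, 1.03, and respiratory chain genes the lowest of those drawn, -0.19.

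On the knockout side no gene passed the test, and the 5 genes with the smallest p are given. Cxcr2, a chemokine receptor known from neutrophils, measured 5.40, 6.49 and 6.54 in wild-type against 6.80, 8.54 and 7.83 in knockout precipitates. It was the 1 gene at least 2-fold lower in wild-type in all 3 pairs (difference -1.58 ± 0.24 SE, limma adjusted p = 0.126), and the signals were dim. The summed level of 5 neutrophil markers was 7.31 to 7.74 in wild-type and 7.52 to 7.66 in knockout precipitates, and its part in this difference was not tested. Only 1 of these 5 markers passed the signal filter, so their sum says little about neutrophils. Mbtps2, the site-2 protease that activates SREBP, differed by -1.14 ± 0.20 (SE), and Foxf1, a mesenchymal transcription factor, by -0.99 ± 0.20 (SE), with limma adjusted p-values of 0.155 and 0.179. Tonsl, a replication fork factor, measured 5.53, 5.37 and 5.36 against 7.23, 6.13 and 6.78, and the ubiquitin ligase Marchf11 measured 5.49, 5.05 and 4.95 against 6.81, 5.80 and 6.42. Neither passed, and with wild-type means of 5.42 and 5.17, below the signal filter of 5.7, both were tested only through their knockout arrays.

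Mitochondrial and housekeeping lists had small negative medians. Of 77 respiratory chain genes and assembly factors, 11 were positive, 35 were lower in all 3 pairs (against 14.3% of all genes) and the median was -0.19. The 2 with the smallest p were Ndufaf3, an assembly factor of complex I, at -0.81 ± 0.21 (SE), and Ndufa4l2, a hypoxia-inducible relative of a chain subunit, at 0.71 ± 0.20 (SE), with limma adjusted p-values of 0.278 and 0.32. Mitochondrial ribosomal protein genes gave 18 positive of 70, 27 lower in all 3 pairs and a median of -0.17. Mrpl54 differed by -0.77 ± 0.25 (SE) and Mrpl44 by 0.65 ± 0.22 (SE), neither passing (limma adjusted p = 0.384 and 0.398). Proteasome subunits gave 2 positive of 32 and a median of -0.19, and 7 were lower in all 3 pairs. Its median was 0.09 in pair 1 and -0.20 and -0.33 in pairs 2 and 3. Psmb9 and Psmb10, subunits of the immunoproteasome, had the smallest p at -0.39 ± 0.21 and -0.45 ± 0.25 (SE; limma adjusted p = 0.584 and 0.596). The median of the mitochondrial ribosomal list stayed between -0.23 and -0.11, that of the respiratory chain between -0.26 and -0.12 and that of the proteasome between -0.35 and -0.05 over the other scalings, filters and left-out numbers.

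Lists of liver metabolism had medians near 0 or slightly below it. Fatty acid oxidation had 16 positive of 40 and a median of -0.14, which was 0.065 without number 3, and none passed. Ehhadh, a peroxisomal enzyme, differed by 0.79 ± 0.23 (SE) and Acat1, the mitochondrial thiolase of ketone metabolism, by 0.87 ± 0.27 (SE), with limma adjusted p-values of 0.339 and 0.352. Conjugation enzymes, which make drugs and bile pigments soluble, had 8 positive of 34 and a median of -0.14. In all 3 pairs 11 of them were lower, against 14.3% of all genes. Mgst3, a membrane glutathione transferase, measured 7.87, 7.61 and 8.73 against 8.70, 8.74 and 9.81 (-1.01 ± 0.20 SE), and Gstm7 differed by 1.10 ± 0.23 (SE), with limma adjusted p-values of 0.179 and 0.19. Among 21 lipid droplet genes G0s2 was called (against 0.0737% of all genes). Hilpda, another inhibitor of the same lipase named after its values were seen, measured 9.04, 10.31 and 10.95 against 8.02, 8.33 and 8.91. The lipase itself, Pnpla2, differed by 0.17 ± 0.21 (SE), the coat protein Plin2 by 0.03 ± 0.21 (SE), and the list median was 0.01.

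Among the 84 genes that met the 2-fold rule, gene spans were shorter than among all genes. Their median span in the RefSeq annotation was 10.8 kb, against 21.8 kb for all genes tested, and 27.4% of them spanned under 5 kb, against 12.3%. Of the called genes, G0s2 (1.03 kb), Fgf21 (1.60 kb), Adm (2.16 kb), Id2 (2.29 kb) and Nfkbia (3.24 kb) were below 5 kb, while Papolg spanned 35.1 kb and Tec 113 kb. Immediate early genes are known to be short, and the 43 of that list had a median of 5.31 kb. The 76 of the 84 outside that list had a median of 13.1 kb, and 21.1% of them spanned under 5 kb.

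Promoter windows of 250 bases before the start were read from RefSeq (GRCm38.p6) for 71 of the 84 genes and for 7754 of all genes tested, and 6 motifs were searched on both strands. The motifs and genes shown were chosen after the values were seen. The cAMP response element TGACGTCA was found in 5.63% of the 71 genes (Bdp1, Btg2, Dusp1 and Flcn) and in 3% of all, and the kappaB motif in 2.82% (Cxcl2 and Nfkbia) and 0.555%. TATAAA was found in 9.86% and 7.94%, the AP-1 motif TGANTCA in 7.04% and 5.53%, and the E-box CACGTG in 7.04% and 10.2%. The C/EBP-ATF motif TGATGCAA was found in 1.41%, which is Fgf21, and in 0.696% of all. These motifs do not overlap one another in the windows printed, and a match is a description of the letters only. The windows of 4 genes that separated the groups are shown because they carry these motifs, 5′ to 3′ on the gene's strand (minus for all 4), with every match to a searched motif in capitals.
Nfkbia, chr12:55492648-55492897: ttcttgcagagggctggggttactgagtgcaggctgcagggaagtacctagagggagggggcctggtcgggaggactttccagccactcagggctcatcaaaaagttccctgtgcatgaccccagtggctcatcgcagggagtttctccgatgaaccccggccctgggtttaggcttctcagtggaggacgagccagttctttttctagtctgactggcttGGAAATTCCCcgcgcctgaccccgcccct
Fgf21, chr7:45615491-45615740: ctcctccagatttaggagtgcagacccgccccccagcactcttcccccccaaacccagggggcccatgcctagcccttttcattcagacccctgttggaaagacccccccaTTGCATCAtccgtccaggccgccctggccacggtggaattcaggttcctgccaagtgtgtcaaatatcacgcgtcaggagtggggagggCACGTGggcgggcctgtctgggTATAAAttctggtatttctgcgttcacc
Dusp1, chr17:26508473-26508722: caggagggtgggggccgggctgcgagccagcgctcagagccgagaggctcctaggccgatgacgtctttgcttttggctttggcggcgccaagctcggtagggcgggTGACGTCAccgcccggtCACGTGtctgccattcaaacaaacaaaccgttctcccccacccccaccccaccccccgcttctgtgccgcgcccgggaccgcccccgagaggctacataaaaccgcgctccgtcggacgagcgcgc
Btg2, chr1:134079156-134079405: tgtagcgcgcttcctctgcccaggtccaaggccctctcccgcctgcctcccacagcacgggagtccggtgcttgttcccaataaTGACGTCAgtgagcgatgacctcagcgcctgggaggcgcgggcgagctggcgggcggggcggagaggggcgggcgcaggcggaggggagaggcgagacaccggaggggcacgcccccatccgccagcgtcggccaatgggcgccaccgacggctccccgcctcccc
In Nfkbia the capitals mark the kappaB motif, which begins at position -29 from the start of the gene. In Fgf21 they mark, from left to right, the C/EBP-ATF motif at -139, the E-box at -50 and TATAAA at -28. In Dusp1 they mark the cAMP response element at -143 and an E-box at -126, and in Btg2 the cAMP response element at -166. Nfkbia and Fgf21 are 2 of the 7 called genes, and the arrays of Dusp1 and Btg2 did not overlap between the precipitates.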

How the data were processed

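The values analysed are the log2 signals per probe set that the authors deposited for each array, made by the standard Affymetrix labelling, per the labels' protocols. How they corrected background, normalized and summarised is not stated in any source used here. Of 16539 probe sets, 15780 carry 1 gene symbol, 695 carry none and 64 are controls. Genes whose mean over the 6 precipitate arrays was at or above the 40th percentile of all probe sets (5.70) were tested: 9496, leaving 6284 out. The fit was limma 3.58.1 (R 4.3.3), lmFit and eBayes with the replicate number as a block, Benjamini-Hochberg over all tested genes, threshold 0.05. The samples were paired by number. After group means were removed, same-number arrays correlated with r of 0.595, 0.698 and 0.674 and other pairs with -0.247 to -0.387. A gene's deviations cancel out within each group, so the negative values are tied to the positive ones and are no separate evidence. Errors are limma's moderated standard errors of the paired difference, which borrow from the spread of all genes, unless marked SD. An exact permutation test of 3 against 3 arrays that leaves out the pairing cannot go below p = 0.1. Within 3 pairs the floor is higher still, so none was used. With 3 arrays a group, their number limits the precision. P-values measure the spread between these arrays only.

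Named genes are the called ones with equal sign in all pairs and no overlap, the 5 smallest p where fewer than 5 were called, and, per described list, up to 4 called members or else the 2 with the smallest p. Cnot6l was named, and clone names were only counted. Other genes lie outside this rule and were named after their values were seen. Most are marked so, but some are not, such as Igf1, Cnot7, Zfp36l1, Zfp36l2, Elavl1, Pnpla2 and Plin2. The members and lists were chosen with earlier results of these data known. The 20 lists described are those drawn, out of 45. Lists given by a name pattern also take in relatives such as assembly factors. Gene spans and promoters come from RefSeq tables of GRCm38.p6, in which 15752 genes matched by Entrez identifier. Alternatives were no replicate block, no filter, a 60th percentile filter, quantile normalization, median centring, trended robust eBayes and leaving out each number.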

Additional observations from a re-analysis of the deposited data

Results flagged for a closer look

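Probe sets without a gene symbol take no part in the comparisons above. Of 369 such probe sets at or above the filter, 2 were at least 2-fold higher in the wild-type precipitate in all 3 pairs without overlap, and 0 were lower by the same rule. They are unnamed in the table used here, so no gene is given.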

How the results depend on the processing

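The count of called genes depends on the fit. It was 7 higher and 0 lower in the main setting. Without the replicate block (the pairing by number), with no filter on dim genes and after quantile normalization it was 0 higher, with 275, 831 and 620 genes higher at an unadjusted p under 0.05 in limma. It was 74 with the 60th percentile filter and 100 with trended robust eBayes, both including the 7, and 7 with median centring. It was 0 to 8 without 1 replicate number. No gene was called lower in any setting. The cause of these shifts was not tested, beyond the number of genes and arrays that each setting changes. Genes at least 2-fold higher in all pairs numbered 73 to 88 in every setting with 3 pairs, and genes lower by the same rule 8 with no filter, 0 with the 60th percentile filter and 1 otherwise. With 2 pairs, where the rule asks less, they numbered 156 to 217 higher and 9 to 32 lower. The block cannot change a difference in complete pairs, only its error. Signals near the filter limit what dim genes such as Mex3d and Cxcr2 can show.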
